A study of Canis lupus familiaris with 26 samples.

Results

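CYP19A1, HSD17B7, SULT1E1 and NR5A2 were followed across the canine corpus luteum (CL) as a small set of genes of estrogen synthesis, estrogen inactivation and the transcriptional control of steroid synthesis. These 4 of the 19856 genes counted were chosen by name for these roles, and each matched 1 Ensembl identifier: ENSCAFG00000015338 for CYP19A1, ENSCAFG00000013211 for HSD17B7, ENSCAFG00000002878 for SULT1E1 and ENSCAFG00000011176 for NR5A2. The RNA-Seq libraries analysed came from CL of 26 mixed-breed bitches of various ages, collected by ovariohysterectomy on day 5, 10, 20 or 30 after ovulation. Treated dogs had received firocoxib (Previcox), an inhibitor of cyclooxygenase 2 (COX2/PTGS2), orally at 10 mg/kg per day from ovulation until collection. Control dogs were given a placebo according to the treatment notes, whereas the series' design text calls them untreated. There were 4 control and 4 treated dogs on day 5, and 3 of each on days 10, 20 and 30. Days 5 and 10 were grouped as the early CL and days 20 and 30 as the mature CL. The CL had been trimmed from the surrounding ovary, so the libraries hold the RNA of whole luteal tissue and not of sorted cells.

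Estrogens are made from androgens by aromatase, the product of CYP19A1. The enzyme of HSD17B7 reduces estrone to the more active estradiol, and it also acts as a 3-ketosteroid reductase in cholesterol synthesis. SULT1E1 encodes the estrogen sulfotransferase, which attaches a sulfate to estrone and estradiol and thereby prevents them from binding their receptors. NR5A2, also known as LRH-1, is a nuclear receptor of granulosa and luteal cells that binds promoters of genes of steroid synthesis, among them CYP19A1. In the bitch the CL is the source of progesterone throughout diestrus, and it expresses aromatase and estrogen receptors as well.

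Levels are given in CPM, the usual unit of reads of a gene relative to all reads of its library, here with library sizes scaled by edgeR's TMM factors. CPM values are not divided by gene length, so levels are compared between samples of a gene and never between genes. Libraries held between 12831896 and 22658950 reads on genes, with a median of 17909942, and TMM factors ranged from 0.765 to 1.32. The 10 most counted genes took from 8.60% to 32.3% of a library. Genes are called changed at a P-value under 0.01 together with an FDR under 0.1 by the quasi-likelihood test of edgeR (FDR after Benjamini and Hochberg, over all genes tested). Comparisons between days and between treatments share libraries and are not independent of each other.

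Of 8 listed markers of luteal cells, LHCGR and PRLR could be followed, and both had reads in every group, whereas STAR, CYP11A1 and HSD3B2 had no identifier in the sources used here and were not checked. The day 20 treated libraries stood apart in several marker lists. The summed level of 7 of 10 listed oocyte genes was 150 to 261 CPM in day 20 treated and 4.63 to 9.27 CPM in day 20 control libraries, where ZP4 had no reads. All 7 had positive log2 fold changes and 4 of them were called, where 0.102% of all genes tested were called. The sum of FSHR, INHA, INHBB and FST, 4 of 8 listed markers of granulosa cells and follicles, was 545 to 888 CPM against 1739 to 2494 CPM, although the fitted values of 3 of the 4 genes were above 0. LHCGR and PRLR together had 111 to 242 CPM against 309 to 508 CPM, although the fitted value of 1 of the 2 genes was above 0 and neither was called. The sum of 7 of 8 listed genes of stroma and smooth muscle was 7884 to 10033 CPM against 1877 to 4767 CPM. In the day 30 treated libraries the sum of 5 of 7 listed endothelial genes was 627 to 1178 CPM, below the 1584 to 1981 CPM of day 30 controls. The stromal sum also moved with time in controls, from 8471 to 14186 CPM on day 5 to 2602 to 3803 CPM on day 30, as did that of the leukocyte genes CD68 and AIF1, 2 of 7 listed, from 22.2 to 53.2 CPM to 8.402 to 14.9 CPM. The endothelial sum in controls was 569 to 1420 CPM on day 5 beside the day 30 range above. Of the 5 genes, 3 were called higher in the mature CL, beside 10.1% of all genes tested. From day 10 to day 20 all 7 oocyte genes had negative values in controls (median -4.69, 4 called), and their sum was 6.78 to 116 CPM on day 10. In that comparison 15.6% of all genes were called in either direction. Markers could be followed only where the study had called them changed, so calls among them are no independent evidence. In such bulk tissue fewer cells of a type and less RNA per cell cannot be told apart, and the part of these markers in the results on the 4 genes was not tested.

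**Figure D1:**
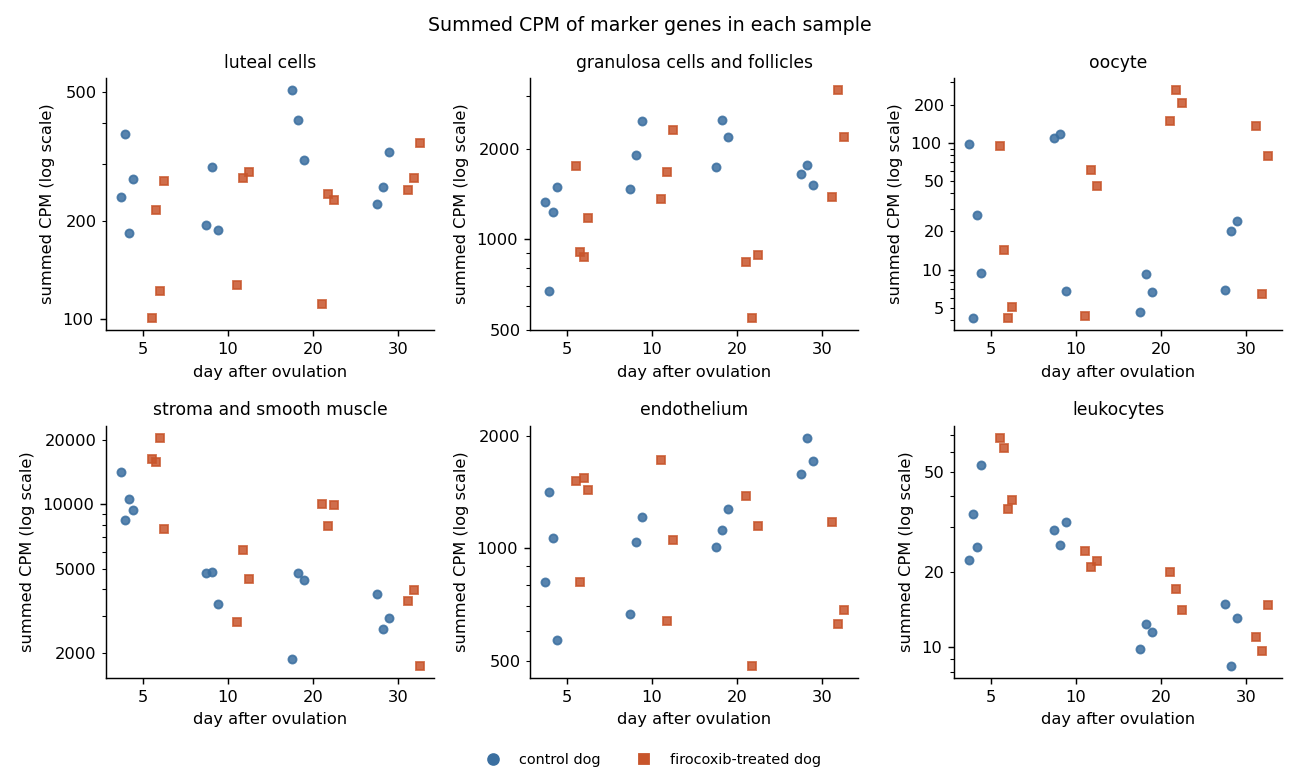
Summed CPM (log scale) of 6 lists of marker genes by day after ovulation, 1 point per library, circles for control and squares for treated dogs. The 3 day 20 treated libraries lay between 150 and 261 CPM for the oocyte list and between 545 and 888 CPM for the granulosa list, outside the range of the day 20 controls in both. Of the 4 granulosa genes, 3 had fitted treated over control values above 0 on day 20 in spite of the lower sum.

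The levels of CYP19A1 differed most between groups. Of the variation of log2 CPM among the 26 libraries, 76.4% lay between the 8 groups for CYP19A1, 60.7% for NR5A2, 50.5% for HSD17B7 and 28.7% for SULT1E1, where 28% is the average for groups that do not differ. Per library, CYP19A1 ranged from 66.8 to 2448 CPM, HSD17B7 from 7.46 to 82.7 CPM and NR5A2 from 46.7 to 524 CPM. SULT1E1 was near the limit of detection, with a median of 7 reads per library.

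**Figure D2:**
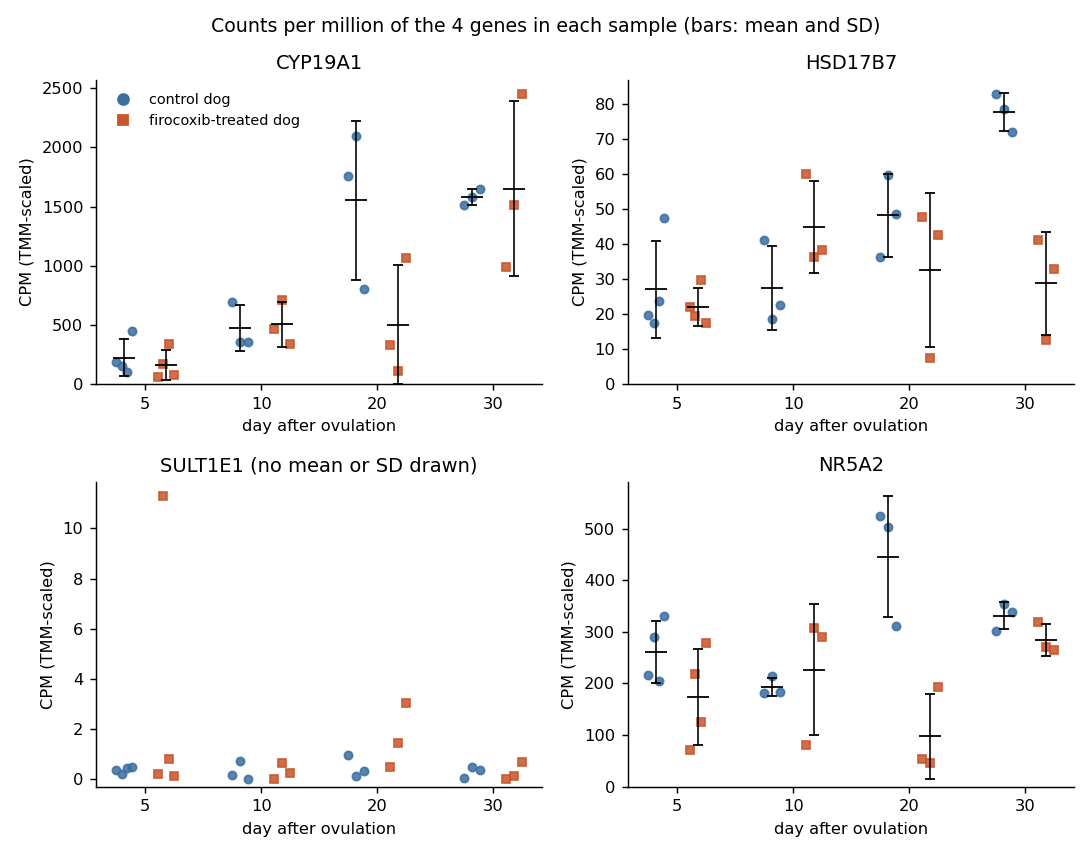
CPM (TMM-scaled, linear axes) of CYP19A1, HSD17B7, SULT1E1 and NR5A2 by day after ovulation, 1 point per library, circles for control and squares for treated dogs; horizontal bars are group means and whiskers SDs, not drawn for SULT1E1. The 3 day 20 treated libraries lay below all day 20 controls in NR5A2, the 3 day 30 treated libraries lay below all day 30 controls in HSD17B7, and 1 day 5 treated library held 11.3 CPM of SULT1E1.

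CYP19A1 was higher in the mature than in the early CL of control dogs. On day 5 the 4 control libraries held 109, 156, 187 and 453 CPM, with a mean of 226 ± 155 CPM (SD). On day 10 they held 360, 360 and 697 CPM, with a mean of 472 ± 194 CPM (SD, n = 3). On day 20 they held 802, 1756 and 2099 CPM, with a mean of 1552 ± 672 CPM (SD, n = 3). On day 30 the values lay close together at 1511, 1581 and 1648 CPM, with a mean of 1580 ± 68.6 CPM (SD, n = 3). Every mature control was thus above every early control, and the lowest mature value of 802 CPM followed the highest early value of 697 CPM.

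Days 20 and 30 exceeded days 5 and 10 by a log2 fold change of 2.23 (SE 0.38, FDR = 0.00173), or 4.70-fold. In that comparison 20.5% of the 13503 genes tested were called and the groups did not overlap in 6.14%. The absolute log2 fold change of CYP19A1 was larger than that of 97.2% of the genes tested. All 4 genes were matched through the study's own tables of changed genes, so this rank is a description and no independent evidence. Leaving out each library in turn gave log2 fold changes from 2.08 to 2.52, all called.

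Between neighbouring days, day 20 over day 10 was the comparison of controls in which CYP19A1 was called, and whether it differed from the other intervals was not tested. The log2 fold change of day 20 over day 10 was 1.71 (SE 0.41, FDR = 0.0361), in a comparison where 15.6% of genes were called and 36.3% did not overlap. This call was lost without day 10 control replicate 3 (log2 fold change 1.49, FDR = 0.0915, but with a P-value over 0.01), without day 20 control replicate 1 (1.53, FDR = 0.103) or replicate 2 (1.43, FDR = 0.133), and in a fit of all 26 libraries (1.71, FDR = 0.252). Day 10 over day 5 gave 1.06 (SE 0.47, FDR = 0.695), with 0.00739% of genes called, and it ranged from 0.64 to 1.65 with a library left out. With the replicate number as a block it was 1.46 (FDR = 0.182), beside 1.37 (FDR = 0.0156) for day 20 over day 10. Day 30 over day 20 gave -0.03 (FDR = 0.986), with 0% called.

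In treated dogs the day 30 values of CYP19A1 were likewise above the early ones, but the libraries of day 20 were spread. On day 5 treated libraries held 66.8, 77.3, 171 and 344 CPM of CYP19A1, and on day 10 they held 340, 465.9 and 714 CPM. On day 20 they held 113, 334 and 1066 CPM, with a mean of 504 ± 499 CPM (SD, n = 3), and on day 30 they held 989, 1514 and 2448 CPM, with a mean of 1650 ± 739 CPM (SD, n = 3). The 2 lower day 20 values lay within the range of early treated libraries, and all day 30 values were above it.

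The log2 fold change of the mature over the early CL in treated dogs was 1.81 (SE 0.65, FDR = 0.147), in a comparison with 4.65% of genes called. It did not pass in edgeR's test and did in DESeq2 (1.80, FDR = 0.0452) and in the fit of all libraries (1.66, FDR = 0.0309). Without the day 20 treated group, an alternative chosen after seeing the data, it was 2.43 (FDR = 0.056). The change from early to mature was 0.60 lower on the log2 scale in treated than in control dogs, which was not separable from 0 (-0.60, SE 0.65, FDR = 0.932).

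No treatment effect on CYP19A1 was called on any day. Treated over control, the log2 fold change on day 5 was -0.48 (SE 0.59, FDR = 0.633). Day 10 gave 0.12 (SE 0.42, FDR = 1) and day 30 gave 0.18 (SE 0.33, FDR = 0.946). The largest of these values in size was that of day 20, at -1.57 (SE 0.80, FDR = 0.347). There a single treated library, replicate 4 with 1066 CPM, was within the range of the controls. With a library left out the day 20 value ranged from -2.77, without that library, to -1.10, without treated replicate 3, and none of these was called. Of all genes, 0.102% were called on day 20 and 0% on each of the other days. With edgeR, an unadjusted P under 0.05 was found for 1609, 121, 2338 and 1074 genes in order of days (11.8%, 0.902%, 17% and 8.14%), and 100, 0, 1479 and 116 genes were called with DESeq2.

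**Figure D3:**
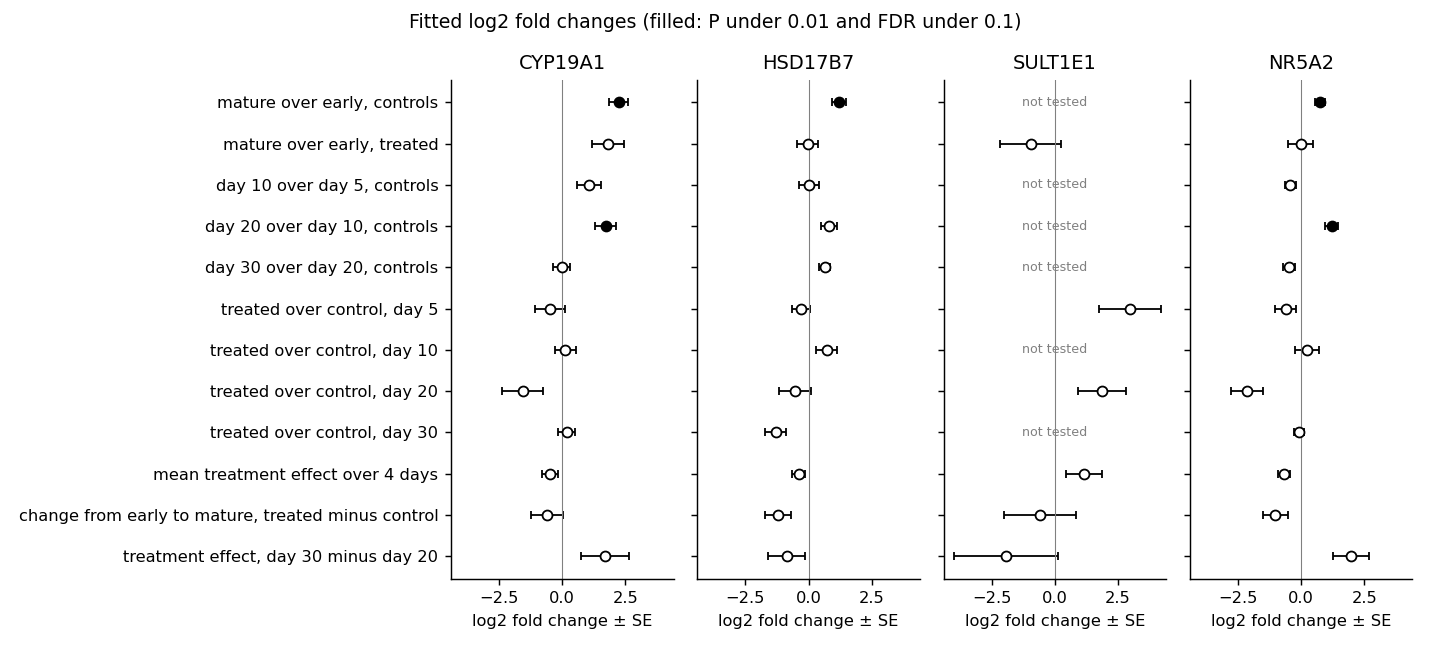
Fitted log2 fold changes (points, with standard errors as bars) of the 4 genes in 12 comparisons, filled where P was under 0.01 and FDR under 0.1. All 5 filled points belong to controls compared over time, and SULT1E1 was not tested where its mean was under 10 reads in both groups.

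HSD17B7 also rose with maturation in controls, and its highest levels were those of day 30 controls. Control libraries held 17.5, 19.8, 23.9 and 47.6 CPM on day 5 and 18.6, 22.6 and 41.3 CPM on day 10. They held 36.3, 48.5 and 59.8 CPM on day 20, and 72.1, 78.4 and 82.7 CPM on day 30. The mean was 27.3 ± 12.03 CPM (SD, n = 7) in the early and 63.0 ± 18.1 CPM (SD, n = 6) in the mature CL of controls. The early and mature ranges overlapped, since 2 early libraries exceeded the lowest day 20 control.

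The log2 fold change of the mature over the early CL was 1.19 (SE 0.27, FDR = 0.00783), and it was called in all 13 fits with a library left out, which ranged from 1.11 to 1.39. Of all genes tested between these stages, 20.5% were called. Day 20 over day 10 gave 0.81 (SE 0.33, FDR = 0.118) and day 30 over day 20 gave 0.63 (SE 0.23, FDR = 0.568). In the latter comparison all day 30 controls were above all day 20 controls, as was the case in either direction for 12.3% of genes.

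In treated dogs this rise was not seen. Treated libraries held 17.5, 19.4, 21.98 and 29.9 CPM of HSD17B7 on day 5 and 36.4, 38.4 and 60.0 CPM on day 10. On day 20 they held 7.46, 42.6 and 47.8 CPM, and on day 30 they held 12.6, 32.9 and 41.2 CPM. The mean was 31.9 ± 14.8 CPM (SD, n = 7) in the early and 30.7 ± 16.8 CPM (SD, n = 6) in the mature CL of treated dogs, a log2 fold change of -0.04 (SE 0.42, FDR = 0.96). The highest treated mean was that of day 10, at 45.0 ± 13.1 CPM (SD, n = 3).

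The change from early to mature differed between treated and control dogs by -1.21 on the log2 scale (SE 0.50), with an FDR of 0.541. Its unadjusted P was under 0.05, as was the case for 7.91% of the 14171 genes tested, and edgeR called 0 genes in this comparison against 192 by DESeq2. The differences over 26 fits with a library left out ranged from -1.42 to -0.97, with none called.

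On day 30 all 3 treated libraries were below all 3 controls, at 28.9 ± 14.7 CPM against 77.8 ± 5.36 CPM (SD, n = 3 each). Groups did not overlap on that day in 14.8% of genes. The log2 fold change was -1.30 (SE 0.40, FDR = 0.599), larger in size than for 95.5% of genes tested, and was not called. HSD17B7 was itself taken from the study's tables of changed genes, so this rank is a description. Without each library in turn it ranged from -1.73 to -1.04, and with DESeq2 it was -1.39 (FDR = 0.102). The endothelial sum that separated the groups on day 30 is given above.

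On day 10 the difference had the opposite sign, with a log2 fold change of 0.72 (SE 0.42, FDR = 1). The groups overlapped there through a control library at 41.3 CPM. The log2 fold changes of day 5 (-0.31, SE 0.37) and day 20 (-0.53, SE 0.63) were smaller in size than their errors.

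HSD17B7 was compared with the enzymes of sterol synthesis that follow squalene, since it belongs to that sequence by its activity as a 3-ketosteroid reductase. Of 10 genes listed for these steps, 6 had an identifier. Identifiers paired with symbols were available only for genes that the study itself had called changed, so the members of every list were selected by outcome and are no independent evidence of a direction. In controls, 5 of the 6 rose from the early to the mature CL, and none fell, where 10.1% of all genes tested rose and 10.4% fell. The median log2 fold change was 1.12, beside 0.02 for all genes tested. SQLE, the squalene epoxidase, had a log2 fold change of 1.51 (SE 0.38, FDR = 0.0126). NSDHL, an enzyme of C4 demethylation, had 1.15 (SE 0.22, FDR = 0.00335). SC5D and DHCR7, which act late in the sequence, had 1.04 (SE 0.29, FDR = 0.0232) and 1.09 (SE 0.34, FDR = 0.0336).

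In treated dogs none of the 6 was called between the early and mature CL, and all 6 log2 fold changes were below 0, with a median of -0.35. The treated over control values of the 6 genes had, in order of days, medians of -0.06, 1.08, -0.90 and -0.997, beside 0.03, 0.02, 0.11 and 0.05 for all genes. All 6 were above 0 on day 10 and below 0 on days 20 and 30, and none was called on any day. An unadjusted P under 0.05 was reached by 2 of them on day 10, by 2 on day 20 and by 3 on day 30, beside 0.902%, 17% and 8.14% of all genes. For SQLE the means were 267 ± 114 CPM in controls and 590 ± 168 CPM in treated dogs on day 10, against 734 ± 253 CPM and 202 ± 138 CPM on day 30 (SD, n = 3 each). The values of HSD17B7 had the same signs as these medians on all 4 days.

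**Figure D4:**
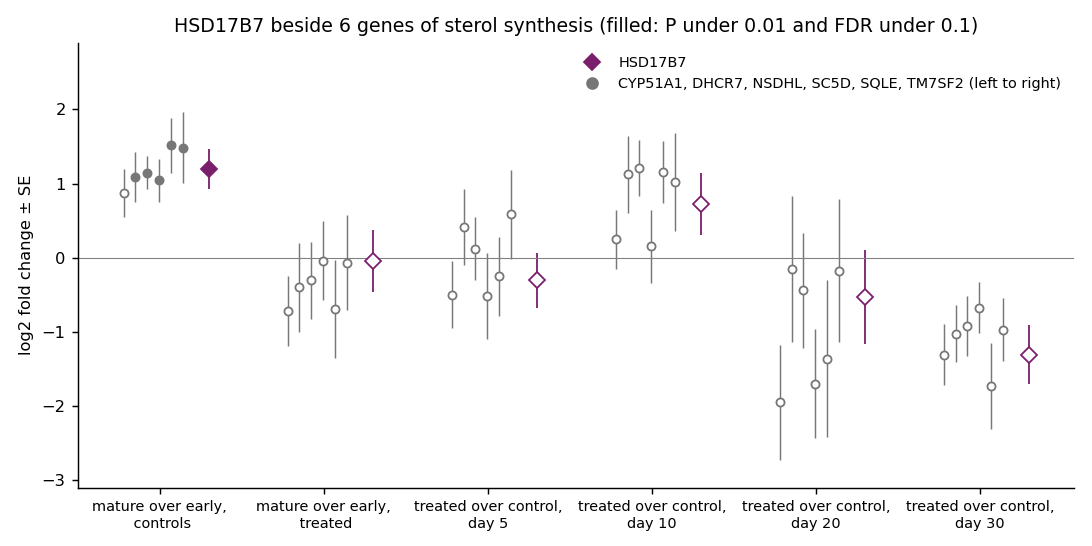
Fitted log2 fold changes with standard errors of HSD17B7 (diamonds) and of 6 enzymes of sterol synthesis (circles) in 6 comparisons, filled where P was under 0.01 and FDR under 0.1. In controls HSD17B7 was 1.19 and the 6 enzymes had a median of 1.12, whereas on day 30 the treated over control values were -1.30 and -0.997.

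Over all 26 libraries, the genes whose log2 CPM was most like that of HSD17B7 were FDFT1 (Pearson r = 0.954), NSDHL (r = 0.931) and ACAT2 (r = 0.930), out of 4081 genes with a symbol and a mean of at least 1 CPM. FDFT1 encodes squalene synthase and ACAT2 a thiolase of the cytosol that joins acetyl-CoA units. Without the 2 libraries farthest from the median of HSD17B7 the values were 0.938, 0.897 and 0.893. These correlations run over libraries of groups that differ in day and treatment and are given as a description.

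Among the other 17β-hydroxysteroid dehydrogenases, 7 of 11 listed genes had an identifier. In controls 4 of them rose and 2 fell from the early to the mature CL, where 10.1% of all genes tested rose and 10.4% fell. HSD17B6, whose enzyme oxidises and epimerises 3-hydroxysteroids, had a log2 fold change of 1.15 (SE 0.20, FDR = 0.00205), and HSD17B13, a lipid droplet protein, had 0.76 (SE 0.22, FDR = 0.0272). HSD17B14 fell, with -0.87 (SE 0.28, FDR = 0.0378). HSD17B1, which like HSD17B7 forms estradiol from estrone, fell with -3.27 (SE 0.82, FDR = 0.0137), at means under 4 CPM in every control group. On day 20 HSD17B1 had 2.19 to 3.41 CPM in treated and 0.120 to 0.318 CPM in control libraries, a log2 fold change of 3.67 (SE 0.64), and an FDR of 0.102. The treated over control value of HSD17B14 was 1.47 (SE 0.52, FDR = 0.228) on that day and, on day 30, 1.19 (SE 0.34, FDR = 0.599). The other 5 of the 7 had day 20 values below 0, and the median of the 7 was -0.93, beside 0.11 for all genes. The lowest of these were HSD17B12, an enzyme of fatty acid elongation, at -1.98 (SE 0.68, FDR = 0.22), and HSD17B4, a peroxisomal enzyme, at -1.18 (SE 0.52, FDR = 0.299), both named after their values were seen.

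Of 12 genes listed for precursor supply and steroid synthesis, 4 had an identifier, and STAR, CYP11A1 and CYP17A1 were not among them. In controls SRD5A1, a 5α-reductase, rose from early to mature by 0.87 on the log2 scale (SE 0.27, FDR = 0.0351). POR, the electron donor of microsomal P450 enzymes including aromatase, fell with a log2 fold change of -1.35 (SE 0.30, FDR = 0.0077). POR was also called in treated dogs, with -1.47 (SE 0.37, FDR = 0.0584).

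SULT1E1 had 461 reads in all 26 libraries together. No reads were found in 3 libraries, which at their depths allows up to 0.174 to 0.180 CPM (3 reads, counting error only), and 17 libraries had fewer than 10 reads. Day 5 treated replicate 2 alone held 220 reads, or 47.7% of the total.

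In controls the level was low on every day. The 4 day 5 controls held 4, 9, 9 and 10 reads, and the day 10 controls held 0, 2 and 16 reads. Day 20 controls held 2, 6 and 16 reads, and day 30 controls held 1, 6 and 8 reads. The means of the control groups lay between 0.296 and 0.467 CPM and differed by less than the largest of their SDs, 0.439 CPM. SULT1E1 missed the filter of a mean of 10 reads in the control comparisons and on days 10 and 30, and it was not tested there. On days 5 and 20, and in the fit of all 26 libraries, it passed only through treated groups. Its tests were thus selected by high treated reads, and its treatment values are a description and no evidence of an effect.

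In treated dogs the reads were unevenly spread. Day 5 treated libraries held 2, 3, 19 and 220 reads, or 0.114, 0.211, 0.819 and 11.3 CPM, and day 10 treated libraries held 0, 5 and 10 reads. Day 20 treated libraries held 9, 30 and 60 reads, or 0.480, 1.43 and 3.06 CPM, with a mean of 1.65 ± 1.30 CPM (SD, n = 3) against 0.467 ± 0.439 CPM in controls. Day 30 treated libraries held 0, 2 and 12 reads.

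On day 20 the groups overlapped by 1 library each, and the log2 fold change was 1.86 (SE 0.95, FDR = 0.343). It ranged from 1.08 without treated replicate 4 to 2.904 without control replicate 1. On day 5 the fitted value was 2.97 (SE 1.24, FDR = 0.412), where an unadjusted P under 0.05 was reached by 11.8% of genes. It rested on 1 library. Without day 5 treated replicate 2 the treated mean was 0.381 ± 0.382 CPM (SD, n = 3) beside 0.388 ± 0.119 CPM (SD, n = 4) in controls, and the log2 fold change without that library and without the filter, an alternative chosen after seeing the data, was -0.01 (FDR = 0.995). Averaged over the 4 days the treatment effect was 1.15 (SE 0.71, FDR = 0.326), with a range from 0.42, without day 5 treated replicate 2, to 1.66 when a library was left out, and the mature over early value in treated dogs was -0.96 (SE 1.20, FDR = 0.658). The genes most like SULT1E1 over the 26 libraries, NTNG1 (r = 0.722), PTGER2 (r = 0.683) and TPM1 (r = 0.681), had r of 0.637, 0.470 and 0.442 without the 2 libraries farthest from its median. At so few reads such values are no more than a description.

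The log2 ratio of CYP19A1 to SULT1E1 reads was computed in each library, with 0.5 reads added to both, to set synthesis beside inactivation. Gene length cancels when this ratio is compared between libraries. Depth does not fully cancel in libraries with few or no SULT1E1 reads, where the value also depends on the reads added. Its precision is limited by the few SULT1E1 reads. On day 20 it was 10.8, 11.2 and 13.7 in controls and 6.28, 8.43 and 9.37 in treated libraries. The groups did not overlap, and the treated mean was 8.03 ± 1.58 against 11.9 ± 1.61 (SD, n = 3 each), a difference of -3.88. The two-sided exact permutation p was 0.1, the smallest that 3 against 3 libraries can give, and 0.3 after adjustment over the 6 comparisons of this ratio. The difference on day 5 was -1.49 (exact permutation p = 0.314), and it was -0.32 without treated replicate 2. It was 0.01 (exact permutation p = 1) for day 10 and 0.71 (exact permutation p = 0.6) for day 30. In controls the mature exceeded the early CL by 2.24 (exact permutation p = 0.0501, adjusted 0.3), or by 2.35 with 2 reads added in place of 0.5 (exact permutation p = 0.0128, adjusted 0.0769), and in treated dogs by 1.50 (exact permutation p = 0.402).

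**Figure D5:**
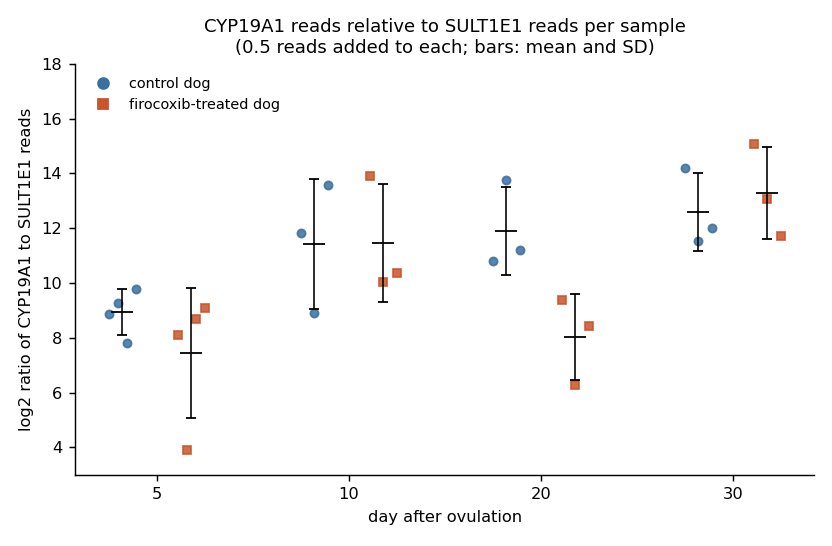
Log2 ratio of CYP19A1 to SULT1E1 reads by day after ovulation, 1 point per library, circles for control and squares for treated dogs, with group means and SDs. On day 20 the treated libraries lay between 6.28 and 9.37 and the controls between 10.8 and 13.7, and the lowest value of all, 3.92, was that of day 5 treated replicate 2.

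Other genes of estrogen inactivation could hardly be followed, since 2 of 17 listed genes had an identifier. UGT1A6, a glucuronosyltransferase of a locus whose members share exons, so that its reads could be split between them, rose in controls with a log2 fold change of 3.55 (SE 0.59, FDR = 0.00141). On day 30 it held 16.9 ± 11.9 CPM in control and 3.55 ± 1.58 CPM in treated dogs (SD, n = 3 each; log2 fold change -2.12, SE 0.68, FDR = 0.599). PAPSS2, which makes the sulfate donor used by sulfotransferases such as SULT1E1, fell in controls with -1.84 (SE 0.38, FDR = 0.00468). On day 20 PAPSS2 held 5.70 to 5.97 CPM in treated and 0.721 to 3.18 CPM in control libraries (log2 fold change 1.50, SE 0.59, FDR = 0.263). Of 9 listed receptors and estrogen targets, 2 had an identifier. ESR1, which encodes estrogen receptor α, had a log2 fold change of -0.16 (SE 0.33, FDR = 0.742) between the early and mature CL of controls. ESRRG, an orphan receptor related to the estrogen receptors, rose by 1.48 on the log2 scale (SE 0.40, FDR = 0.0189).

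NR5A2 rose in controls between day 10 and day 20. Control libraries held 205, 217, 290 and 330 CPM on day 5, and 182, 183 and 214 CPM on day 10. They held 311, 502 and 524 CPM on day 20, and 302, 339 and 353 CPM on day 30. All day 20 controls were above all day 10 controls, where 36.3% of genes did not overlap, and the 2 highest values of the series were day 20 controls.

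The log2 fold change of day 20 over day 10 was 1.20 (SE 0.27, FDR = 0.0309), in a comparison where 15.6% of genes were called. This call was lost without day 20 control replicate 1 (0.995, FDR = 0.106) or replicate 2 (1.11, FDR = 0.119), in the fit of all libraries (1.21, FDR = 0.269) and with the library number as a block (0.995, FDR = 0.117). Day 10 over day 5 gave -0.44 (SE 0.23, FDR = 0.724) and day 30 over day 20 gave -0.48 (SE 0.25, FDR = 0.686). The mature exceeded the early CL of controls by 0.73 (SE 0.20, FDR = 0.0184), and this was called in all 13 fits with a library left out, but not in the fit of all 26 libraries (0.78, FDR = 0.159). Between these stages 20.5% of all genes tested were called. The value of NR5A2 was larger in size than for 74.6% of genes tested.

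In treated dogs NR5A2 was lowest on day 20. Treated libraries held 71.1, 126, 219 and 279 CPM on day 5, and 80.1, 291 and 308 CPM on day 10. On day 20 they held 46.7, 53.5 and 192 CPM, and on day 30 they held 264, 270 and 319 CPM. The day 20 values of replicates 2 and 3 were the lowest of the series, and 1 of the 3 day 30 values was in the range of the day 30 controls. The mature over early log2 fold change in treated dogs was -0.02 (SE 0.49, FDR = 0.983).

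On day 20 the treated mean was 97.5 ± 82.1 CPM and the control mean 446 ± 117 CPM (SD, n = 3 each), with all treated below all control libraries, as was the case in either direction for 30.3% of genes on that day. The log2 fold change was -2.14 (SE 0.64), or 4.42-fold lower. Its P-value was under 0.01, and the FDR of 0.191 missed the threshold of 0.1. The value passed in DESeq2 (-2.22, FDR = 0.0131) and in the fit of all libraries (-2.19, FDR = 0.0328), where 1479 and 1559 genes in all were called, against 14 in the edgeR fit of day 20 alone. Over the fits with a library left out it ranged from -3.11 to -1.82, with none called. The sums of luteal, granulosa, oocyte and stromal markers that separated the day 20 groups are given above. Within the luteal and granulosa lists the fitted values of single genes had both signs.

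On the other days the log2 fold changes of NR5A2 were smaller, at -0.62 (SE 0.40, FDR = 0.445) for day 5, 0.24 (SE 0.48, FDR = 1) for day 10 and -0.10 (SE 0.20, FDR = 0.948) for day 30. The effect of day 30 differed from that of day 20 by 1.97 (SE 0.72, FDR = 0.285), where 13.6% of genes had an unadjusted P under 0.05. EdgeR called 0 genes in that comparison and DESeq2 354. The effect averaged over the 4 days was -0.69 (SE 0.24, FDR = 0.172). Here 20.2% of genes had an unadjusted P under 0.05, and 0 genes were called with edgeR and 1152 with DESeq2, which called NR5A2 (-0.67, FDR = 0.0902). Over days 5, 10 and 30 alone, an alternative chosen after seeing the data, the average was -0.19 (FDR = 0.841). The change from early to mature differed between treated and control dogs by -1.03 (SE 0.49, FDR = 0.623).

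Of 18 genes listed as orphan receptors, partners and coregulators around NR5A2, 8 had an identifier, and NR5A1 was not among them. In controls 3 of these rose and 1 fell from the early to the mature CL, where 10.1% of all genes tested rose and 10.4% fell. The median log2 fold change was -0.32, beside 0.02 for all genes. NR0B2, also known as SHP, a repressor that binds NR5A2, fell with -2.63 (SE 0.49, FDR = 0.00296), from 4.01 ± 2.25 CPM on day 5 (SD, n = 4) to 0.604 ± 0.477 CPM on day 30 (SD, n = 3). The coactivators NCOA2 and NCOA3 rose by 0.62 (SE 0.17, FDR = 0.0191) and 0.68 (SE 0.19, FDR = 0.0209) on the log2 scale, and PROX1, a homeodomain corepressor of NR5A2, rose by 1.32 (SE 0.45, FDR = 0.0482). On day 20 none of the 8 was called between treated and control dogs, and 3 had an unadjusted P under 0.05, beside 0.102% of all genes called and 17% under 0.05. These 3 were NR4A1, NR4A2 and GATA4, named after their values were seen, with log2 fold changes of 4.19 (SE 0.73, FDR = 0.102), 3.91 (SE 0.99, FDR = 0.15) and 1.55 (SE 0.37, FDR = 0.145). NR4A1 and NR4A2 are immediate-early nuclear receptors, and GATA4 is a transcription factor of gonadal somatic cells.

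The genes most like NR5A2 over the 26 libraries were FAM20B (r = 0.933), RDX (r = 0.932) and DDHD1 (r = 0.928), a xylose kinase, the actin linker radixin and a phospholipase. Those most like CYP19A1 were MANSC4 (r = 0.931), CSGALNACT1 (r = 0.927) and DYDC1 (r = 0.921). CSGALNACT1 encodes an enzyme of chondroitin sulfate synthesis. The candidates were again the 4081 genes described for HSD17B7, all called changed by the study, and the values are a description. Without the 2 libraries farthest from the member's median, r was 0.893, 0.922 and 0.943 for NR5A2 and 0.920, 0.910 and 0.901 for CYP19A1. Spearman rho was 0.803, 0.826 and 0.826 for NR5A2 and 0.912, 0.907 and 0.891 for CYP19A1.

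Within groups, that is after subtraction of each group's mean log2 CPM, the 4 genes showed no pairwise relation that passed adjustment over the 6 pairs (permutation of libraries within groups). CYP19A1 and HSD17B7 had a Pearson r of 0.581 (permutation p = 0.0452, adjusted 0.243) and a Spearman rho of 0.423 (permutation p = 0.0913, adjusted 0.226), and r was 0.366 without the 2 libraries farthest from the median. CYP19A1 and NR5A2 had an r of 0.441 (permutation p = 0.158, adjusted 0.243), which was 0.194 without 2 libraries, and a rho of 0.365 (permutation p = 0.162, adjusted 0.242).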

How the data were processed

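The authors aligned single-end reads with STAR to the canine build CanFam3.1 and counted them per Ensembl gene with featureCounts, and they deposited these read counts without normalization or filter. Libraries judged outliers by the authors were not analysed here. The library kit does not mark strand, so reads of overlapping antisense genes cannot be told apart. The day and treatment came from the sample labels. The sources do not state whether CL of a dog were pooled.

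The 4 genes and the gene lists were chosen with earlier results of these data known. Genes were named as members, as list members called over time in controls or under treatment (at most 4 per list, by P), or as the 3 genes most like each member. Symbols came from the study's tables of changed genes, which pair 4347 identifiers with one. The 4 genes and the lists are therefore confined to genes the study had called changed, and others were not named. The values of 1 list gene are not reported here. Gene lengths and sequences were not used here.

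Analyses used R 4.3.3, edgeR 4.0.16 and DESeq2 1.42.0, with Python 3.11.15 and scipy 1.17.1. The filter kept genes averaging 10 reads or more in 1 or more of the groups compared, which were fitted with TMM factors and edgeR's quasi-likelihood test (estimateDisp, glmQLFit, glmQLFTest). Pairwise fits used the samples of that comparison, and the contrasts over all days used 8 group means of 26 samples. The standard error was taken as the absolute log2 fold change over the square root of F. Log2 CPM used a prior count of 2. Relations within groups used 100000 resamples. No 2 samples of a group were copies of each other (lowest chi-square over its degrees of freedom 46.6). P-values weigh a difference against the variation between dogs within the groups compared. Where mature was compared with early CL in controls or treated dogs alone, days were pooled, so this variation also holds differences between days. The tests were tried on simulated data with known fold changes. A required recovery was set only at a fixed variation between samples, so this does not show their power at the variation between these dogs. Alternatives were DESeq2, RLE factors, no filter, 1 fit of all samples, the sample number as a block, the omission of each sample, and, for the ratio and pairs, another offset or prior count.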

Additional observations from a re-analysis of the deposited data

Results flagged for a closer look

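SULT1E1 in day 5 treated replicate 2 stood far from its group, with 11.3 CPM beside 0.819 CPM in the next of the 4 day 5 treated libraries. Its gap to the next value was 0.937 of the range of the group, above Dixon's critical value of 0.829, and 0.927 of the range of the 7 early treated libraries, above 0.568. Of 24 groups tested for such a library, chance alone would mark about 1 in 20. CYP19A1 in that library, at 171 CPM, was within the range of its group.

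The treated over control difference of HSD17B7 had opposite signs on days 10 and 30, was called on neither day, and the groups of day 10 overlapped. The share of all genes with such a pattern was not counted. All 3 treated libraries of day 10 were above the mean of their controls, by 0.76 on the log2 CPM scale on average, and all 3 of day 30 were below it (-1.59 on average), a difference of 2.35. The difference between these 2 days was not tested.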

How the results depend on the processing

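All values are log2 fold changes unless said otherwise, and the cause of a change was not tested. The rise from early to mature in controls was called for CYP19A1, HSD17B7 and NR5A2 in every fit with a library left out and under every alternative except the fit of all 26 libraries for NR5A2 (0.78). In the main fit of these stages 20.5% of all genes tested were called. With DESeq2 3 further values were called, CYP19A1 between stages in treated dogs (1.80) and NR5A2 under treatment on day 20 (-2.22) and on average (-0.67). The fit of all libraries called CYP19A1 between stages in treated dogs (1.66) and NR5A2 under treatment on day 20 (-2.19), and lost day 20 over day 10 for CYP19A1 (1.71) and NR5A2 (1.21). The value of CYP19A1 for day 30 over day 20, near 0, changed sign with DESeq2 and RLE factors (both 0.0171), without the filter (0.0257), with the block (0.20) and in the fit of all libraries (0.026).

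Replicate numbers recur between groups, but no source describes a pairing. Same-numbered libraries were counted as deviating together where their deviations from the group means had an r over 0.1. This held in 1 of 3 pairs on day 5 and in none on days 20 and 30. Between the early and mature CL it held in 2 of 9 pairs of controls and in 3 of 8 pairs of treated dogs. With the replicate number as a block, HSD17B7 changed sign between stages in treated dogs (0.28) and between days 5 and 10 (-0.0036), as did SULT1E1 on day 5 (-0.50) and CYP19A1 on day 30 (-0.25) under treatment. The block lost NR5A2 for day 20 over day 10 (0.995) and called its average treatment effect (-0.94). On day 10 it was not run, since 1 shared number leaves no residual degrees of freedom.

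Alternatives chosen after seeing the data gave, without the day 20 treated group, 2.43 for CYP19A1 and 0.56 for NR5A2 between stages in treated dogs, and -0.012 for SULT1E1 on day 5 without treated replicate 2.

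With a library left out, day 20 over day 10 ranged from 1.43 to 2.11 for CYP19A1, 0.54 to 1.23 for HSD17B7 and 0.995 to 1.40 for NR5A2, and it was called for HSD17B7 without day 10 control replicate 2 (1.23). The range was from 0.64 to 1.65 for CYP19A1 in day 10 over day 5 and from -0.43 to 0.43 for HSD17B7. Day 30 over day 20 ranged from -0.33 to 0.24 for CYP19A1. The stage difference in treated dogs ranged from 1.38 to 2.13 for CYP19A1, -0.22 to 0.19 for HSD17B7, -1.73 to 1.51 for SULT1E1 and -0.23 to 0.18 for NR5A2. It was called for CYP19A1 without day 20 treated replicate 2 (1.99). Treatment effects of CYP19A1 ranged from -1.13 to 0.11 on day 5, -0.24 to 0.52 on day 10, -2.77 to -1.10 on day 20 and -0.22 to 0.36 on day 30. Those of HSD17B7 on day 5 ranged from -0.47 to 0.12, and of NR5A2 on day 10 from -0.0674 to 0.63. Those of SULT1E1 ranged on day 20 from 1.08 to 2.904 and on average from 0.42 to 1.66. On day 5 SULT1E1 reached up to 3.37. Without day 5 treated replicate 2 it missed the filter, and the value of -0.012 was obtained only with the filter left out. The average effect on NR5A2 ranged from -0.91 to -0.59 and was called without day 20 treated replicate 4 (-0.91). The difference of stage changes of SULT1E1 ranged from -1.61 to 0.95, the treatment difference of the log2 ratio of CYP19A1 to SULT1E1 from -2.04 to -0.32 on day 5, -1.25 to 1.09 on day 10 and -0.18 to 1.52 on day 30, and r between HSD17B7 and NR5A2 within groups from -0.21 to 0.23.

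DESeq2 gave no p for SULT1E1 on day 5. The number of genes called in the edgeR fits and with DESeq2 was 639 and 1620 for stage in treated dogs, 1 and 144 for day 10 over day 5, and 0 and 157 for day 30 over day 20. With the block, calls went from 2774 to 1806 for stage in controls, from 639 to 383 for stage in treated dogs, from 2098 to 946 for day 20 over day 10 and from 0 to 649 for the average treatment effect. In the fit of all libraries these were 1754, 1705 and 11 for the first 3. On day 20 the treatment calls were 14, with RLE factors 95, without the filter 109 and without treated replicate 2 1016.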
